A study of Mus musculus with 23 samples.

Results

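The response of mouse prefrontal cortex to a growing subcutaneous tumour was compared between a late time, 192 h, and an early time, 18 h, after the injection of tumour cells. The series holds 23 two-colour arrays from 11 biological replicates, and 10 of those arrays, from 5 replicates, carry this comparison. They are the replicates measured on total RNA with both dye orientations, namely 192 h replicates 3 and 4 (4 arrays) and 18 h replicates 3, 4 and 5 (6 arrays). At both times the tumour animals were male Balb/c mice, 8 weeks old, given 1000000 cells of CT-26.WT, a colon carcinoma line of the same strain, under the skin in 300 µl of phosphate-buffered saline (PBS), and the control animals received PBS alone. Cortex RNA of a tumour sample and of a PBS sample of the same time was hybridised together on each array. A gene's value is therefore its tumour over PBS ratio on the log2 scale, taken within arrays and averaged over both dye orientations of a replicate, and a difference is the 192 h mean minus the 18 h mean of these ratios. Whether a replicate was 1 mouse or a pool is not stated in the sources used here, so p values measure the spread between these samples. In tissue RNA of this kind, fewer cells of a type and less RNA per cell cannot be told apart.

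A tumour under the skin can reach the brain through blood-borne cytokines, through stress hormones and through sensory nerves. The prefrontal cortex is a region of neurons that release glutamate or GABA from synaptic vesicles, together with astrocytes, oligodendrocytes, microglia and vessels. Synaptic vesicles are acidified by the vacuolar proton pump, whose proton gradient drives transmitter uptake, and they fuse through the SNARE proteins, their recycling factors NSF and SNAP, and regulators such as complexin. By 192 h CT-26 cells have usually formed a small tumour, whereas at 18 h they have only just been placed.

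The scanner files of the 10 arrays held 1821 to 8638 usable spots of 10080, and the median spot signal with background was 1.82 to 3.39 times the local background. A probe, meaning the spots of one GenBank entry, was tested when it had a value in 2 or more replicates at each time. This left 2506 probes for 2478 genes of the 9008 probes on these arrays. Of them, 1214 had a value in all 5 replicates and 1292 in 4. Over those 1214 probes the replicates resembled each other little. The Pearson correlation across probes was 0.00192 between the 192 h replicates, and it lay between -0.0327 and 0.0425 among the 18 h replicates. The pair with the highest value crossed the times: 192 h replicate 3 and 18 h replicate 5 had a correlation of 0.286. Within replicates, the 2 arrays with opposite dyes, both turned to tumour over PBS, correlated at 0.0369 and -0.493 in 192 h replicates 3 and 4, and at -0.204, 0.0703 and 0.0961 in 18 h replicates 3, 4 and 5. The spread of ratios over probes (SD) was 0.243 and 0.146 in the 192 h replicates and 0.216, 0.408 and 0.380 in the 18 h replicates. The arrays of 192 h replicate 3 were printed in a layout of their own, and the other 8 arrays shared another layout.

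No probe differed between 192 h and 18 h by limma after Benjamini-Hochberg adjustment. The count was 0 of 2506 (0%) at a threshold of 0.05, and the smallest adjusted p was 0.997. At an unadjusted p under 0.05 there were 53 probes (2.11%), 27 of them higher at 192 h (1.08%) and 26 lower (1.04%). The differences had a median of 0.03 on the log2 scale, quartiles of -0.12 and 0.16 and a range from -1.54 to 1.12, while the median standard error was 0.21. Replicate values did not overlap between the times for 595 probes (23.7%), 323 with higher values at 192 h (12.9%) and 272 with lower values (10.9%). With so few replicates, no overlap also arises without any difference between the times, so these shares serve only as a background. Within the shared print layout, 192 h replicate 4 against the 18 h replicates gave 0 calls and 22 probes at an unadjusted p under 0.05. Leaving out 18 h replicate 5 gave 13 calls by limma, 2 higher and 11 lower at 192 h, of which 12 had a value from replicate 4 alone at 18 h. The share of higher probes among those at an unadjusted p under 0.05 was 50.9%, and it was 35.5% without loess, 70% without background subtraction, 88.2% and 79.4% with scanner file 2 or 3 alone, 77.8% with the authors' deposited scores and 61.1% with dim spots removed.

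**Figure D1:**
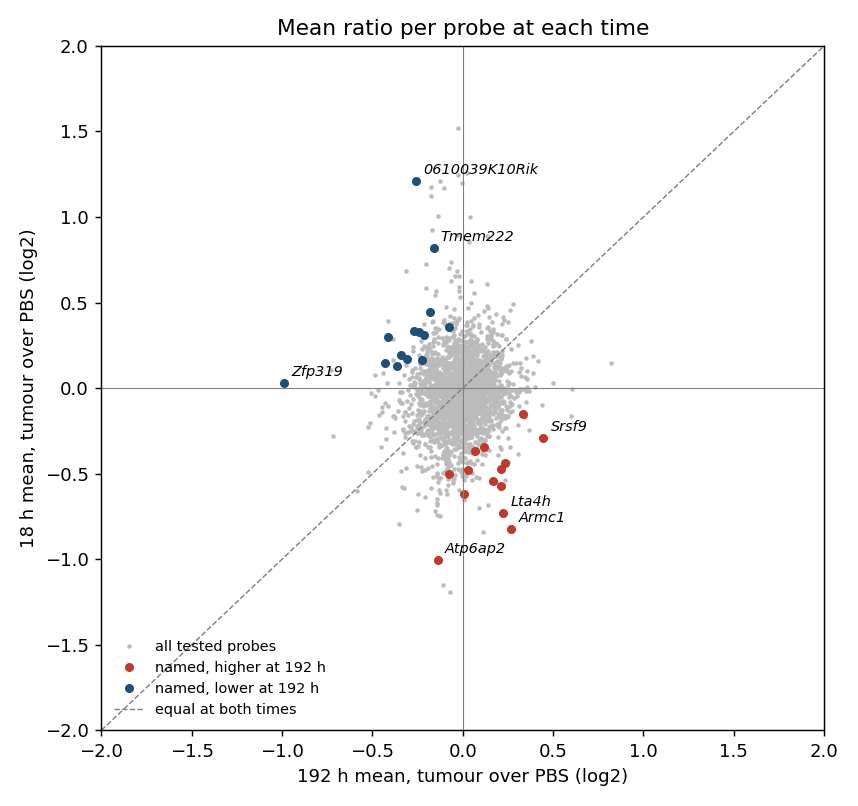
Mean log2 ratio of tumour over PBS at 192 h (horizontal) against that at 18 h (vertical) for each of the 2506 tested probes, with the genes named for replicate values that did not overlap in colour and the line of equal ratios dashed. The cloud is taller than it is wide, and 60.1% of probes lay farther from 0 at 18 h than at 192 h.

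The 18 h mean was often the one farther from 0, both among the probes with small p and among all probes. Of the 53 probes at an unadjusted p under 0.05, 40 (75.5%) had an 18 h mean farther from 0 than their 192 h mean, against 60.1% of all tested probes. Among the 20 of them with all 5 values the count was 12, close to the 58.8% of all probes with 5 values. The excess therefore lay in probes with 4 values, whose 18 h mean rests on 2 samples. The spread of the replicates moved with this, since the 18 h side held both replicates with the widest ratios, and its part in the result was not tested. Ratios of 1 or more either way made up 0.359% and 0.0399% of the probes measured in 192 h replicates 3 and 4, and 0.0484%, 3.24% and 2.14% of those in 18 h replicates 3, 4 and 5. Among single arrays, the SD over all probes with a value was widest on the 18 h replicate 4 array with tumour in Cy3, at 0.746. It was 0.254 to 0.562 on the others in the comparison.

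The gene with the smallest p was Armc1, which codes for an armadillo-repeat protein of the mitochondrial outer membrane. Its first probe read 0.42 and 0.11 in the 192 h replicates, against -0.78, -0.97 and -0.73 in the 18 h replicates. By this probe the ratio was above 0 in both late samples and below 0 in all 3 early ones, which a second Armc1 probe did not show. The difference was 1.10 ± 0.18 (SE), with an unadjusted p of 0.000419 and an adjusted p of 0.997 by limma, and without 18 h replicate 5 it was 1.15 ± 0.19 with an adjusted p of 0.0313 by limma. Within the shared print layout it was 0.94, and over the 25 alternatives it ran from 0.24 to 1.34. On single arrays the first probe read 0.42 and 0.43 in 192 h replicate 3 and -0.41 and 0.64 in 192 h replicate 4, while all 6 arrays at 18 h were below 0, from -1.75 to -0.19. The spot was among the brightest, at percentile 99.0 of intensity. Its saturation factor in the scanner files is a number whose meaning the header does not give. The median of this factor over spots was 0, 0.976 or 1 depending on the file. For the first Armc1 probe the factor was 0.252, 0.193 and 0.159 in the 3 files of the 18 h replicate 5 array with tumour in Cy3. It was at least 0.82 on the other 9 arrays. In files 2 and 3 of this 18 h replicate 5 array the spot was marked S, and spots with this mark were kept.

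Another 9 genes with 5 values were higher at 192 h without overlap, a pattern that 101 of the 1214 such probes (8.32%) showed. Lta4h, the enzyme that makes leukotriene B4, read by its first probe 0.34 and 0.11 in the 192 h replicates, against -0.57, -1.18 and -0.44 in the 18 h replicates, a difference of 0.95 ± 0.25. Chst13, a chondroitin sulfotransferase, read 0.04 and -0.03 at 192 h, against -0.54, -0.57 and -0.75 at 18 h, a difference of 0.63 ± 0.17. By these probes the means over dyes were below PBS in every early replicate, and late they were above it (Lta4h) or close to it (Chst13). Single arrays with opposite dyes disagreed. At 18 h Chst13 read -2.085, -1.98 and -2.38 with tumour in Cy5, and 1.01, 0.85 and 0.88 with tumour in Cy3. At 192 h it read -1.02 and -2.09 with tumour in Cy5, and 1.10 and 2.03 with tumour in Cy3. Lta4h at 18 h read -1.31, -1.29 and -1.74 with tumour in Cy5, and 0.17, -1.06 and 0.85 with tumour in Cy3. Cplx1, complexin 1 of the synaptic release machinery, read -0.11 and -0.05 at 192 h, against -0.35, -0.68 and -0.47 at 18 h, a difference of 0.42 ± 0.18. Slc30a5, a zinc transporter of the secretory pathway, read 0.23 and 0.10 at 192 h, against 0.01, -1.04 and -0.60 at 18 h, so its difference of 0.71 ± 0.30 rested on 2 of the 3 early samples. Smarca2, the ATPase of SWI/SNF chromatin remodelling complexes, read 0.25 and 0.22 at 192 h, against -0.35, 0.03 and -0.98 at 18 h. Its early samples spanned more than 1 log2 unit, and its difference was 0.67 ± 0.29.

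The remaining 4 of these genes were Rabgap1l, Kcng4, Nkx6-3 and Pgk1. Rabgap1l, a GTPase-activating protein for Rab GTPases, averaged 0.34 ± 0.05 (SD, n = 2) at 192 h and -0.15 ± 0.17 (SD, n = 3) at 18 h. Kcng4, a modifying subunit of voltage-gated potassium channels, differed by 0.44 ± 0.19. Nkx6-3, a homeobox transcription factor, differed by 0.46 ± 0.21. Pgk1, phosphoglycerate kinase of glycolysis, read 0.03 and 0.02 at 192 h, against -0.11, -0.84 and -0.49 at 18 h. On single arrays of 18 h replicate 4, Pgk1 read -0.19 with tumour in Cy5 and -1.48 with tumour in Cy3. Unadjusted p values of these 4 genes lay between 0.0273 and 0.0641, and all had an adjusted p of 0.997 by limma.

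The opposite direction, lower at 192 h without overlap, was found for 90 of the 1214 probes (7.41%). Dcakd, which resembles the kinase of the last step of coenzyme A synthesis, read by its first probe -0.50 and -0.37 in the 192 h replicates, against 0.00126, 0.14 and 0.30 in the 18 h replicates. Polr1c, a subunit shared by RNA polymerases I and III, read -0.35 and -0.19 at 192 h, against 0.41, 0.51 and 0.07 at 18 h. Tgtp1, an interferon-inducible GTPase, read -0.17 and -0.26 at 192 h, against 0.41, 0.14 and 0.39 at 18 h. By these probes the means over dyes of all 3 were below PBS in both late samples and not below it in any early one. Single arrays with opposite dyes disagreed in sign in some replicates and agreed in others. Dcakd read 0.31 with tumour in Cy5 and -0.31 with tumour in Cy3 in 18 h replicate 3. In 18 h replicate 4, Polr1c read -0.12 and 1.15 in the same order, and Tgtp1 -0.49 and 0.77. Their differences were -0.58 ± 0.18 for Dcakd, -0.60 ± 0.20 for Polr1c and -0.53 ± 0.18 for Tgtp1, with unadjusted p values from 0.0119 to 0.0181 and an adjusted p of 0.997 by limma.

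Zfp319, a zinc finger protein, had the lowest 192 h mean among these 10 genes, and 1 sample carried it. It read -1.70 and -0.28 at 192 h, against 0.09, 0.15 and -0.15 at 18 h, a difference of -1.02 ± 0.38. On single arrays of 192 h replicate 3, Zfp319 read -3.09 with tumour in Cy5 and -0.32 with tumour in Cy3. In 192 h replicate 4 it read 0.04 and -0.60, so its low late mean rested mainly on 1 array. The transcription factor Etv4 differed by -0.49 ± 0.19. Oca2, a transporter of the melanosome, differed by -0.48 ± 0.18. Lmbr1l, a lipocalin receptor, averaged -0.25 ± 0.01 (SD, n = 2) at 192 h and 0.33 ± 0.33 (SD, n = 3) at 18 h. Napg, the gamma form of the SNAP protein that helps to take SNARE complexes apart after fusion, read -0.64 and -0.05 at 192 h, against 0.19, 0.05 and 0.34 at 18 h. Rpp25l, a relative of a ribonuclease P subunit, differed by -0.39 ± 0.16. Nme2, a nucleoside diphosphate kinase, read -0.11 and -0.04 at 192 h, against 0.26, 0.57 and 0.24 at 18 h, and its difference was -0.44 ± 0.18. On single arrays of 18 h replicate 4, Lmbr1l read 0.26 with tumour in Cy5 and 1.15 with tumour in Cy3. Nme2 read 0.02 and 1.12 on the same arrays.

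**Figure D2:**
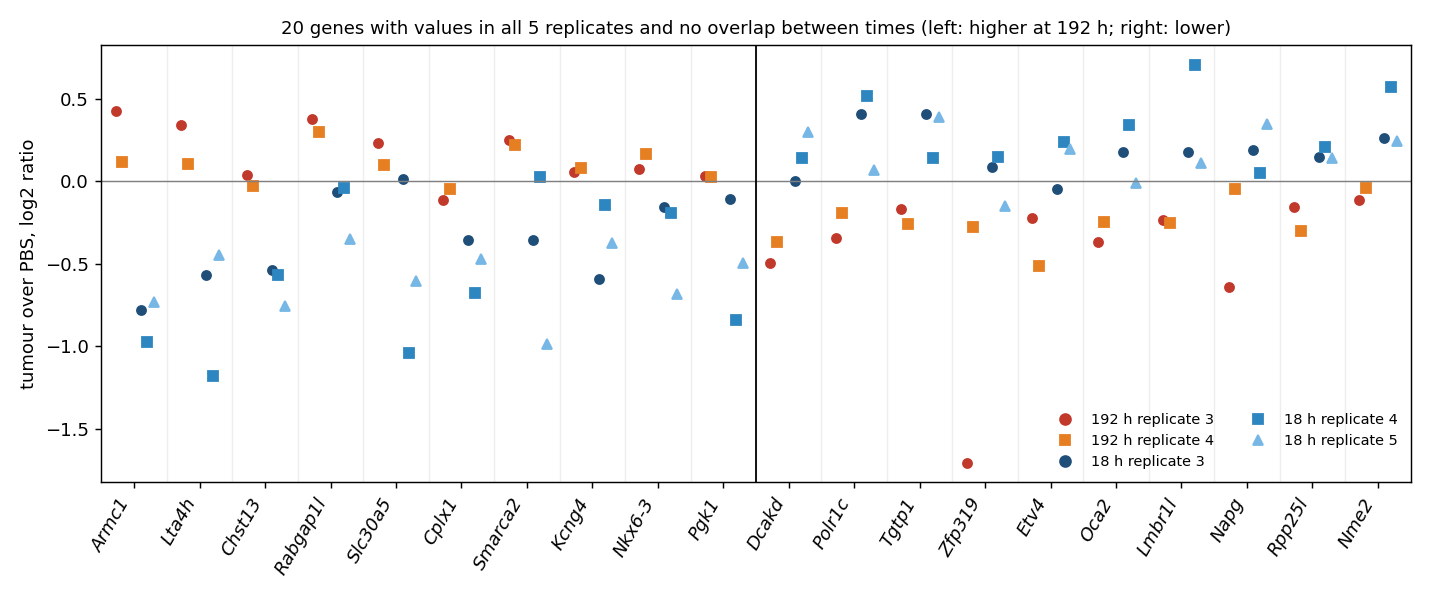
Log2 ratio of tumour over PBS in each replicate (192 h replicates in red and orange, 18 h replicates in blues) for the 10 genes higher and the 10 genes lower at 192 h that had the smallest p among probes with 5 values and no overlap. The 192 h points of the 10 genes on the left lie between -0.11 and 0.42, and their 18 h points between -1.18 and 0.03.

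With values in 4 replicates, no overlap between the times was more common, at 222 of 1292 probes higher at 192 h (17.2%) and 182 lower (14.1%). Fewer values separate more easily by their order alone, so this rise is not a result about the times. Atp6ap2, the accessory subunit of the vacuolar proton pump also known as the prorenin receptor, read -0.27 and -0.00444 at 192 h, against -1.08 and -0.93 in 18 h replicates 4 and 5, a difference of 0.87 ± 0.21. Pex26, a peroxisome import factor, read 0.16 and 0.27 at 192 h, against -0.62 and -0.53 in 18 h replicates 3 and 5. Both were below PBS in the early replicates measured and within 0.3 of it late. On single arrays Atp6ap2 read -0.04 with tumour in Cy5 and -2.12 with tumour in Cy3 in 18 h replicate 4, -1.50 and -0.36 in replicate 5, and -0.03 on the 1 array of replicate 3 that measured it, so its early mean rested mostly on 2 arrays. Col7a1, the collagen of anchoring fibrils, differed by 0.69 ± 0.20, and Srsf9, a splicing factor, by 0.74 ± 0.22.

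In the other direction, Usp9x, a deubiquitinase, read -0.67 and -0.16 at 192 h, against 0.23 and 0.36 in 18 h replicates 3 and 4, a difference of -0.71 ± 0.24. Nfxl1, a gene of the NFX1 family, differed by -0.63 ± 0.21. The uncharacterised transcript 0610039K10Rik read -0.48 and -0.03 at 192 h, against 2.06 and 0.36 in 18 h replicates 4 and 5, so its difference of -1.47 ± 0.52 rested mainly on 1 early sample. Tmem222, a membrane protein, differed by -0.98 ± 0.21, and the sign turned to 0.07 with a loess inside each sub-grid of the array. In 18 h replicates 4 and 5 it read 0.11 and -0.69 with tumour in Cy5, against 1.70 and 2.16 with tumour in Cy3. Its high early values thus came from 1 dye orientation. Adjusted p values were 0.997 by limma for all 8 of these genes.

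A second probe of the same gene was tested for 25 genes, and in 3 of them a probe was at an unadjusted p under 0.05. For none of these 3 did the second probe show a difference of like size. The second Armc1 probe read -0.08 and 0.05 at 192 h, against 0.11, -0.09 and -0.71 at 18 h, a difference of 0.22 ± 0.26 where the first had 1.10 ± 0.18. The second Lta4h probe differed by 0.14 ± 0.21 where the first had 0.95 ± 0.25. The second Lta4h probe was above 0 in 18 h replicate 3 (0.16). The second Dcakd probe read -0.36 and 0.04 at 192 h, against 0.04 and -0.35 in 18 h replicates 3 and 5, a difference of -0.01 ± 0.24 where the first had -0.58 ± 0.18. The first probes had been selected on this same contrast, so a smaller second value is not a test of them. Over the 25 genes, both probes had the same sign in 14, and the difference correlated across genes with a Pearson r of 0.211. In 9 of the 25 genes one probe's replicate values overlapped between the times and those of the other did not. The median gap between the differences of both probes was 0.16, and the median absolute difference of the 50 probes was 0.12.

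**Figure D3:**
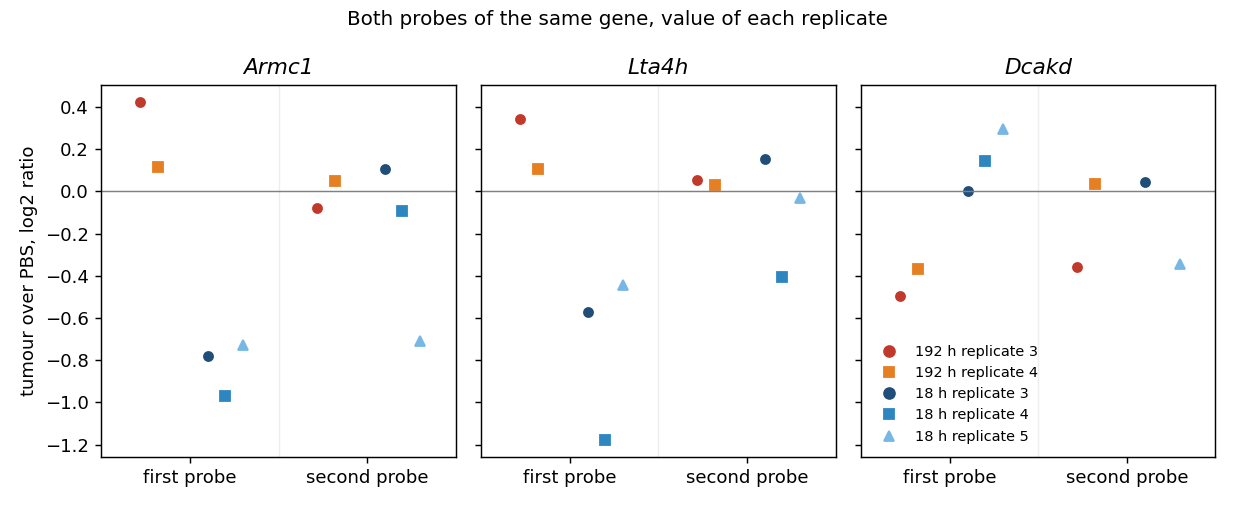
Log2 ratio of tumour over PBS in each replicate for both probes of Armc1, Lta4h and Dcakd, the 3 genes with 2 tested probes of which one was at an unadjusted p under 0.05. The first probes separate the 192 h from the 18 h replicates, and the second probes do not.

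Differences of 1 log2 unit or more either way were found at 15 probes (0.599%), 12 lower and 3 higher at 192 h. These genes were chosen by the size of the difference after the values were seen. In 12 of the 15, the 18 h replicate 4 value lay at 1 or beyond, and in 11 of those 12 the array with tumour in Cy3 was farther from 0 than its dye-swap partner. The median absolute ratio of these 12 probes was 3.56 on the Cy3 array and 1.80 on the Cy5 array. Saa3, a serum amyloid A of the acute-phase response, read 0.04 and -0.09 at 192 h, against 0.21 and 2.83 in 18 h replicates 3 and 4, a difference of -1.54 ± 0.75. Atp5e, the epsilon subunit of ATP synthase, read 0.18 and -0.14 at 192 h, against 2.08 and 0.44 in 18 h replicates 4 and 5. On single arrays of 18 h replicate 4, Atp5e read 0.55 with tumour in Cy5 and 3.60 with tumour in Cy3. The other early samples of Saa3 and Atp5e were within 0.5 of PBS.

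**Figure D4:**
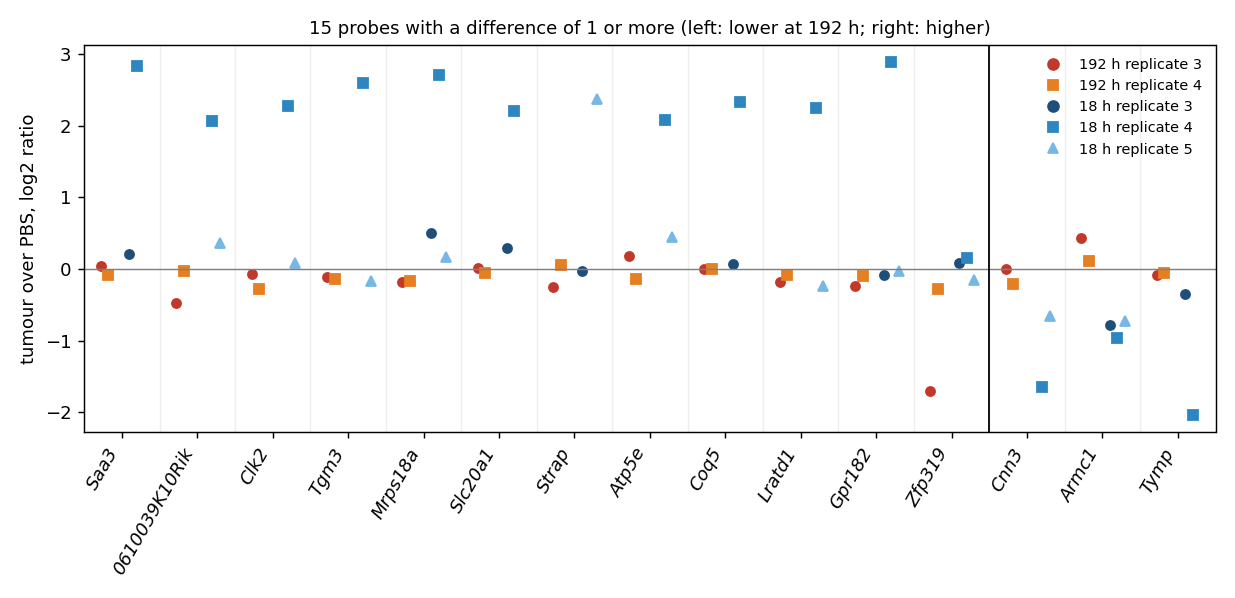
Log2 ratio of tumour over PBS in each replicate for the 15 probes whose 192 h and 18 h means differed by 1 or more. Apart from Zfp319, the 192 h points of the 12 genes on the left lie between -0.48 and 0.18, while in 10 of those 12 genes the 18 h replicate 4 point is above 2.

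Signs were also counted across all 5 replicates. Any given pattern of 5 signs turns up in some probes without a difference between the times, so the counts alone show no time course. Of the 1214 probes with 5 values, 31 (2.55%) were above 0 in both 192 h replicates and below 0 in all 18 h replicates, and 23 (1.89%) had the opposite turn. Armc1, Lta4h, Hmgn3 and Sema5b led the upward turn by the size of the smaller time mean. Hmgn3, a nucleosome-binding protein, averaged 0.26 ± 0.07 (SD, n = 2) at 192 h and -0.34 ± 0.50 (SD, n = 3) at 18 h. Sema5b, a semaphorin that guides axons, averaged 0.23 ± 0.07 (SD, n = 2) at 192 h and -0.23 ± 0.33 (SD, n = 3) at 18 h. For the downward turn Polr1c, Lmbr1l, Crct1 and Tgtp1 led. Crct1, a gene of the epidermal differentiation complex, averaged -0.21 ± 0.06 (SD, n = 2) at 192 h and 0.25 ± 0.28 (SD, n = 3) at 18 h.

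More probes kept one sign throughout. Below PBS in all 5 replicates were 66 probes (5.44%), and above PBS in all 5 were 29 (2.39%). The median ratio over the 1214 probes was itself off 0, at -0.009 and -0.018 at 192 h, and 0.004, -0.009 and -0.074 at 18 h. The part of these medians in the counts was not tested. Rit2, a small GTPase of neurons, read -0.09 and -0.55 at 192 h, against -0.15, -0.31 and -0.39 at 18 h. Hs6st2, a heparan sulfate sulfotransferase, averaged -0.21 ± 0.20 (SD, n = 2) at 192 h and -0.22 ± 0.18 (SD, n = 3) at 18 h. Rtn3, a reticulon of the endoplasmic reticulum, was also below 0 throughout, and 1 sample at 18 h stood apart at -1.48. Narf, first described as a partner of prelamin A, completed the 4 leading genes with means of -0.23 at 192 h and -0.27 at 18 h. Above PBS at both times were Cntn4, a contactin of axons, with 0.32 and 0.21 at 192 h against 0.21, 0.30 and 0.18 at 18 h, and also Afmid, Glmn and 1700003E16Rik. Cntn4 had the tightest values of these, with an SD of 0.08 at 192 h and 0.06 at 18 h.

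Gene lists were read by their counts and medians beside those of all tested probes, of which 1379 of 2506 (55%) had a difference above 0 with a median of 0.03. The vacuolar proton pump had 11 genes on the arrays and 7 tested, 6 of them higher and 1 lower at 192 h, with a median of 0.23 that kept its sign under all 9 scaling alternatives and in every run without a replicate. By replicate, the median ratio of the tested members was -0.15 and 0.02 at 192 h, against 0.02, -0.34 and -0.42 at 18 h, so that 18 h replicate 3 lay with the late samples. 2 of its 7 members were at an unadjusted p under 0.05, where the background was 2.11%. They were Atp6ap2 and Atp6v1a, the catalytic subunit A, which read -0.27 and 0.02 at 192 h, against -0.53 and -0.97 in 18 h replicates 4 and 5, a difference of 0.62 ± 0.24. Both genes had been singled out earlier in these data for low 18 h ratios, so they add no independent evidence. The stator subunits Atp6v1g1 (0.23 ± 0.19) and Atp6v1g2 (0.20 ± 0.26), the shaft subunit Atp6v1d (0.33 ± 0.26) and Atp6v1f (0.12 ± 0.18) had differences above 0 with overlapping replicates. Atp6v0e, of the membrane sector, was the 1 lower member at -0.33 ± 0.28, with 0.84 in 18 h replicate 4 and the other 4 samples between -0.15 and 0.06.

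Synaptic lists were mixed. Of 18 tested genes of synaptic vesicles and release, 11 were higher and 7 lower at 192 h, with a median of 0.11, which was -0.05 without 18 h replicate 5. Its members with the smallest p were Napg and Cplx1, whose differences had opposite signs as given above. Of 12 tested glutamate and GABA receptor genes and their scaffolds, 8 were higher and 4 lower, with a median of 0.13. Dlg4, the postsynaptic scaffold PSD-95, read 0.23 and 0.24 at 192 h, against -0.18 and -0.17 in 18 h replicates 4 and 5, a difference of 0.41 ± 0.19 with an unadjusted p of 0.0674. Gabra2, the alpha 2 subunit of the GABA-A receptor, read 0.04 and 0.11 at 192 h, against -0.01 and -1.02 in 18 h replicates 4 and 5. Its early samples differed by more than the times did.

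Receptors for other transmitters had no common direction. Of 18 tested genes of monoamine, opioid and neuropeptide signalling, 9 were higher and 9 lower, and the median of 0.01 changed sign under 5 of the 9 scaling alternatives (no loess, no background subtraction, normexp, and files 1 and 3 alone). Chrnb2, the beta 2 nicotinic receptor subunit, had the smallest p, at 0.10 and 0.51 at 192 h, against -0.23 and -0.53 in 18 h replicates 4 and 5, a difference of 0.69 ± 0.23. Npy2r, a neuropeptide Y receptor, differed by 0.51 ± 0.24, and Cnr1, the cannabinoid receptor of nerve endings, by -0.30 ± 0.19. Of 10 tested voltage-gated channel genes, 5 were higher and 5 lower. Kcnd2, a potassium channel of dendrites, read -0.87 and -0.01 at 192 h, against -0.13, -0.12 and 0.52 at 18 h. Kcnn1, a calcium-activated potassium channel, differed by 0.52 ± 0.30 with late values of 0.74 and -0.12. Kcnh2, the ERG potassium channel, differed by 0.21 ± 0.19, and by -0.01 without background subtraction.

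Genes of energy and protein metabolism lay close to the background. Of 34 tested oxidative phosphorylation genes 22 were higher and 12 lower, with a median of 0.08, which was -0.02 without loess. Atp5o, a stalk subunit of ATP synthase, read 0.10 and 0.06 at 192 h, against -0.04, -0.75 and -0.28 at 18 h, whereas Atp5e differed by -1.24 ± 0.49 as described above. Of 28 ribosomal protein genes 18 were higher and 10 lower, with a median of 0.04, which was -0.04 without loess, -0.02 with the deposited scores and -0.02 without 18 h replicate 5. Rps15 differed by 0.35 ± 0.21, Rpl26 by -0.32 ± 0.20 and Rpl35 by -0.25 ± 0.19. On single arrays of 18 h replicate 4, Atp5o read 0.23 with tumour in Cy5 and -1.73 with tumour in Cy3. Rps15 read 0.64 and -1.45 on the same arrays. Of 20 proteasome and ubiquitin genes 10 were higher and 10 lower. Psma1, a core proteasome subunit, was near PBS late, at 0.00329 and 0.09, and below it early, at -0.03, -0.32 and -0.41. Uchl1, a ubiquitin hydrolase of neurons, differed by -0.20 ± 0.19, and by 0.07 with a loess inside each sub-grid.

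Chaperone genes of heat shock and of the endoplasmic reticulum, 10 tested, were 8 higher and 2 lower, with a median of 0.16. The median was -0.08 without 18 h replicate 5 and -0.01 without 192 h replicate 3. Dnaja1, an Hsp70 co-chaperone, read -0.12 and 0.12 at 192 h, against -0.11, -0.41 and -0.68 at 18 h, a difference of 0.40 ± 0.21. None of the 10 was at an unadjusted p under 0.05, and none had replicate values without overlap.

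Of 15 circadian clock genes on the arrays 6 were tested, and all 6 were lower at 192 h, with a median of -0.16. This median kept its sign under all 9 scaling alternatives and in every run without a replicate. By replicate, the median ratio of the tested members was -0.05 and -0.10 at 192 h, against 0.13, 0.79 and -0.12 at 18 h. The median of 18 h replicate 5 thus lay below both late ones. Nfil3, a repressor of clock output, read -0.33 and -0.30 at 192 h, against 1.23 and 0.14 in 18 h replicates 4 and 5. Its difference was -0.998 ± 0.353 with an unadjusted p of 0.027 by limma. On single arrays of 18 h replicate 4, Nfil3 read -0.37 with tumour in Cy5 and 2.83 with tumour in Cy3. It read 0.19 and 0.09 in replicate 5 and -0.50 on the 1 array of replicate 3 that measured it, so its early mean rested on 1 array. Csnk1e, a kinase that marks PER proteins for degradation, read -0.10 and -0.09 at 192 h, against 0.07 and 0.02 in 18 h replicates 3 and 5. The differences of the other 4 were -0.43 ± 0.30 for Csnk1d, a second such kinase, -0.18 ± 0.36 for Mtnr1a, a melatonin receptor, -0.10 ± 0.18 for Dbp, a clock output factor, and -0.03 ± 0.24 for Per2, a repressor of the core loop. Their replicate values overlapped between the times, and 18 h replicate 4 held the highest value of each of Nfil3, Csnk1d, Dbp and Mtnr1a. In that replicate Csnk1d read -0.30 with tumour in Cy5 and 1.675 with tumour in Cy3. Of these 6 genes 1 was at an unadjusted p under 0.05.

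Stress, activity and immune genes showed no common direction. Of 8 tested glucocorticoid-responsive and stress-axis genes 3 were higher and 5 lower. Cebpb, a transcription factor induced by inflammation and glucocorticoids, read -0.01 and -0.19 at 192 h, against 0.19 and 0.13 in 18 h replicates 3 and 5. Of 6 immediate early genes, which neurons induce on activity, 5 were higher and 1 lower, and Nptx2, a pentraxin at excitatory synapses, led with 0.33 ± 0.23. The list median of 0.09 changed sign with scanner file 1 alone and without 192 h replicate 4.

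Of 15 tested cytokine, chemokine and endothelial inflammation genes 8 were higher and 7 lower. Il18, an interleukin of the inflammasome, read -0.03 and -0.27 at 192 h, against 0.43 and 0.27 in 18 h replicates 4 and 5, a difference of -0.50 ± 0.20. Ccr1, a chemokine receptor, differed by 0.43 ± 0.23, and its spot was dim, at percentile 14.5 of intensity. Of 6 interferon, MHC and complement genes 3 were higher and 3 lower. Trim34a, an interferon-induced ubiquitin ligase, read 0.02 and 0.17 at 192 h, against -0.44 and -0.96 in 18 h replicates 3 and 5, a difference of 0.79 ± 0.24 with an unadjusted p of 0.0138. Cfi, complement factor I, differed by -0.32 ± 0.19, and C1qb, a chain of C1q made by microglia, by 0.28 ± 0.19. Of 5 cell cycle genes 3 were higher and 2 lower, and Orc6, of the origin recognition complex, differed by -0.24 ± 0.25, which was 0.07 without loess.

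Cell type markers were measured to different extents. A value in enough replicates was had for 7 of 15 excitatory neuron markers on the arrays, 9 of 15 inhibitory neuron markers and 9 of 15 astrocyte markers, against 7 of 41 keratin, hair and testis genes, 1 of 23 blood and leukocyte markers and 2 of 19 epithelial tumour cell markers. For other cell types of the cortex, 5 of 17 microglia and macrophage markers, 5 of 17 endothelial and mural markers and 2 of 13 oligodendrocyte and myelin markers were tested. Of 5 tested microglia and macrophage markers 3 were higher and 2 lower at 192 h, with a median of 0.28, which was -0.08 without loess and -0.15 without 18 h replicate 5. Aif1, the microglial protein IBA1, read 0.24 and 0.21 at 192 h, against -0.25 and -0.08 in 18 h replicates 3 and 5, a difference of 0.39 ± 0.19. Of 7 excitatory neuron markers 3 were higher and 4 lower, and 7 of the 9 scaling alternatives turned the median of -0.04. Bcl11b, a factor of deep-layer neurons, differed by 0.41 ± 0.27, and Nrgn, neurogranin of dendritic spines, read 0.15 and 0.16 at 192 h, against -0.02, -0.25 and -0.00254 at 18 h. On single arrays Nrgn read 0.58 with tumour in Cy5 and -1.08 with tumour in Cy3 in 18 h replicate 4, and -0.85 and 0.84 in replicate 5.

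Of 9 inhibitory neuron markers 4 were higher and 5 lower. Dlx6, a homeobox gene of interneurons, differed by -0.41 ± 0.21, Sst, the peptide somatostatin, by 0.25 ± 0.19, and Gad1, the GABA-making enzyme, by 0.45 ± 0.35. Gad1 had early values of 0.07 and -1.02, and its difference was -0.10 without 18 h replicate 5. Of 9 astrocyte markers 4 were higher and 5 lower, with -0.28 ± 0.19 for Ntsr2, a neurotensin receptor, and 0.20 ± 0.22 for Sox9, a transcription factor of glia. Of 5 endothelial and mural markers 3 were higher and 2 lower, and Tfrc, the transferrin receptor of brain vessels, differed by -0.51 ± 0.38. Of 7 keratin, hair and testis genes, listed because cortex should hardly express them, 5 were higher and 2 lower, with a median of 0.15, above that of most brain lists. Zpbp, a sperm protein, had replicate values without overlap and a difference of 0.40 ± 0.22, which was -0.04 with the deposited scores.

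**Figure D5:**
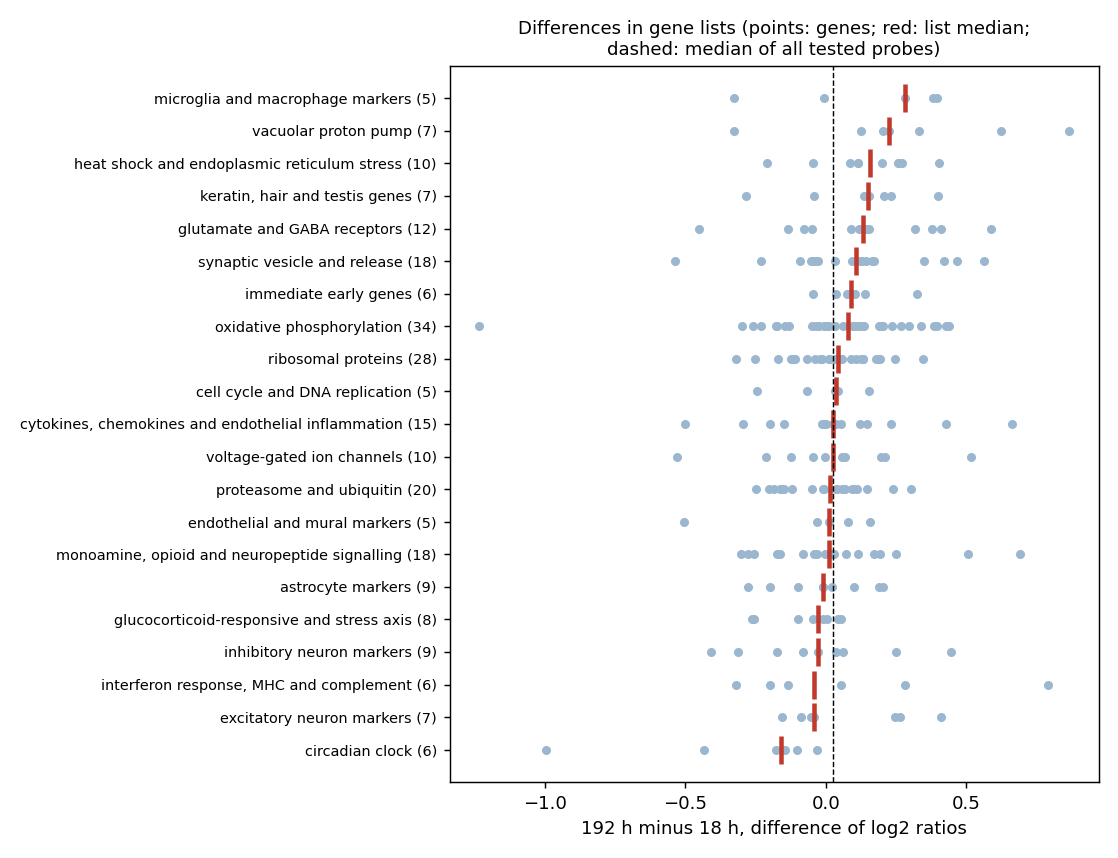
Difference of log2 ratios, 192 h minus 18 h, for each tested gene (points) of the 21 lists with 5 or more tested members, with the list median in red and the median of all tested probes, 0.03, dashed. List medians run from -0.16 (circadian clock) to 0.28 (microglia and macrophage markers), and the members of every list but the circadian one fall on both sides of 0.

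The other 7 lists had fewer than 5 tested members. They were acute phase (2), cholesterol biosynthesis (4), oligodendrocyte and myelin (2), choroid plexus and meninges (2), striatum (4), blood and leukocytes (1) and epithelial tumour cells (2), and none of their members was at an unadjusted p under 0.05.

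Several genes described earlier at single times could be followed here only in part. Bdnf, a neurotrophin that activity induces, read -0.23 and 0.05 at 192 h, against 0.01 and -0.27 in 18 h replicates 4 and 5, a difference of 0.04 ± 0.22 whose sign turned under 7 alternatives. Snap25, a SNARE protein of synaptic vesicle fusion, read 0.06 in 192 h replicate 4, against -0.39, -0.24 and -1.31 at 18 h. Arc, an activity-induced synaptic gene, read 0.21 in 192 h replicate 3, against 0.02, 2.64 and 0.96 at 18 h. Kcnc1, a potassium channel of fast-spiking neurons, read -0.15 in 192 h replicate 4, against -0.13, -0.13 and -0.67 at 18 h. Serpina3n, an acute-phase protease inhibitor, read -0.04 in 192 h replicate 4, against -0.12 and 0.21 in 18 h replicates 4 and 5. The last 4 genes had 1 late value each and were not tested.

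Other arrays of the series gave values for the same genes that were not used in the comparison. At 72 h, total RNA replicates 3 and 4 were also dye swaps, of which replicate 3 was not analysed here. Replicate 4 had values for 18 of the 20 genes with the smallest p in both directions. In 11 of the 18 (61.1%) the 72 h ratio was nearer to the 192 h mean than to the 18 h mean, against 59.7% of all 2121 tested probes with a 72 h value. Armc1 read 0.21 at 72 h, Cplx1 0.34 and Polr1c -0.07. At 192 h, replicates 1 and 2 were poly(A) RNA with 1 dye orientation each. The sign of the mean of these replicates was that of the total RNA mean in 9 of 18 genes (50%), against 46.9% of 1610 probes. Armc1 read -0.35 and 0.65 in the poly(A) replicates, and Lta4h -1.88 and 1.04. In both genes the poly(A) values lay on opposite sides of 0.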

How the data were processed

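Scanner files of 2-colour arrays printed in house were used. Per the file headers, the authors deposited for each spot and channel a linear intensity with the local background subtracted, in 3 files per array of rising brightness. The image software is not given in the sources used here. The authors' deposited score per spot, a log ratio of unstated normalisation and log base, served as an alternative. Per the labels' protocols, TRIzol total RNA was reverse transcribed with aminoallyl nucleotides and coupled to Cy3 or Cy5. Channel A was taken as Cy3 because the deposited scores then follow the labelled dyes (their correlation with scanner ratios was 0.562 to 0.880 over the 10 arrays). Were it Cy5, every direction would turn.

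Spots marked B, X, Y or Z were dropped. Log2 ratios of each file were normalised by loess (limma 3.58.1 under R 4.3.3, span 0.3, 4 iterations), signed so that tumour is the numerator, and then averaged (files, spots of a probe, dye orientations). Print layouts were joined by GenBank entry. Mean brightness ranks correlated at 0.282 and 0.310 between the arrays of 192 h replicate 3 and arrays of other layouts. Symbols were updated with RefSeq's gene table for GRCm38.p6, which gave no coordinates. Times were compared with lmFit and eBayes over all 2506 probes, adjusted by Benjamini and Hochberg. Scripts were tested on simulated data. The numbers of arrays limit the precision.

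Members and lists were chosen with earlier results of these data known. Named were, 1 probe per gene, the genes with no overlap and the smallest p (10 each way with 5 values, 4 each way with 4), the leading genes by sign in all replicates (4 per pattern), genes described earlier, and from each list with 5 or more tested members the gene with the smallest p and any other of the 3 smallest whose values did not overlap. This last narrowing, and the vacuolar proton pump and clock genes beyond it, were chosen after values were seen. There were 25 alternatives. Oligonucleotide sequences of the spots were not used here.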

Additional observations from a re-analysis of the deposited data

Results flagged for a closer look

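Among the named genes, 19 had ratios on opposite sides of 0 in every replicate of the times. The difference between the times was tested by limma for each and did not pass the adjustment (adjusted p = 0.997). Above 0 in both 192 h replicates and below 0 in all 18 h replicates were Armc1 (difference 1.10), Lta4h (0.95), Hmgn3 (0.60), Pgk1 (0.51), Rabgap1l (0.49), Sema5b (0.46), Nkx6-3 (0.46), Kcng4 (0.44), Atp5o (0.44), Psma1 (0.30) and Nrgn (0.25). Below 0 in both 192 h replicates and above 0 in all 18 h replicates were Polr1c (-0.60), Dcakd (-0.58), Lmbr1l (-0.58), Napg (-0.54), Tgtp1 (-0.53), Crct1 (-0.46), Nme2 (-0.44) and Rpp25l (-0.39). Over all probes with 5 values these patterns made up 2.55% and 1.89%. Many of the genes had been named for no overlap or for this very turn, so their number follows from the selection. Some values lay almost at 0, such as 0.00126 for Dcakd and -0.00254 for Nrgn at 18 h. Signs are those of means over dyes: at 18 h Kcng4 read -1.20, -0.78 and -1.39 with tumour in Cy5, but 0.03, 0.49 and 0.65 with tumour in Cy3.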

How the results depend on the processing

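Of 25 alternatives, only leaving out 18 h replicate 5 gave calls (13); among them Armc1, 0610039K10Rik (-2.32), Atp5e (-2.05) and Nfil3 (-1.54) are named above, and all but Armc1 had 1 early value. Leaving out each replicate gave 0 to 13 calls, 22 to 183 probes at an unadjusted p under 0.05 (53 in the comparison as reported) and 964 to 1297 without overlap (595). Fewer values are left to overlap in those runs, so their counts without overlap are not on a par with 595. The counts at an unadjusted p under 0.05 and without overlap were 20 and 252 with the first scanner file alone, 17 and 287 with the second, 34 and 302 with the third, 18 and 378 with the deposited scores, 117 and 1245 where 1 dye orientation was enough, and 16 and 191 where all 5 replicates were required. At an unadjusted p under 0.05 there were 31 probes without loess, 167 with arrays fitted singly, 203 with the poly(A) replicates added (smallest adjusted p 0.0591 by limma) and 22 with the print layout as a covariate, which equals leaving out 192 h replicate 3. Whether same-numbered replicates of the times belong together was not settled. Deviations of same-numbered samples from their time means correlated at -0.179 (replicates 3) and 0.107 (replicates 4). With only 2 late replicates, their deviations mirror each other, so these correlations cannot decide it. With the replicate block, 46 of 1285 probes were at an unadjusted p under 0.05 and 0 were called. For layout as a random block the estimated correlation was -0.223, and 0 were called. Signs turned for Tmem222 (0.0666) and Uchl1 (0.0687) with a loess inside each sub-grid, Orc6 (0.0748) without loess, Kcnh2 (-0.00767) without background subtraction, Zpbp (-0.037) with the deposited scores, Nrgn (-0.12) with the poly(A) replicates, Gad1 (leave-one-out range -0.0999 to 0.992, lowest without 18 h replicate 5), and Bdnf without background subtraction (-0.018), with the first file alone (-0.13), with ratios scaled between arrays (-0.00581), with 1 orientation enough (-0.12), with arrays fitted singly (-0.0488), and without 192 h replicate 4 or 18 h replicate 5 (leave-one-out range -0.105 to 0.18). The cause was not tested for any of these. Signal over background limits dim spots such as that of Ccr1.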

Other observations

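The correlation of 0.286 between 192 h replicate 3 and 18 h replicate 5, which share neither time nor print layout, lay between 0.134 (no loess) and 0.540 (second scanner file alone) under the 9 scaling alternatives. It was 0.136, 0.350 and 0.442 in the dimmest, middle and brightest of 3 equal parts of the 1214 probes. Between single arrays of these replicates it was 0.314 where both had tumour in Cy5 and 0.416 where both had tumour in Cy3, against -0.119 and 0.121 where the dyes were opposite. Its source was not tested. Within the times, no correlation between replicates exceeded 0.117 under those alternatives.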
